A study of Pinus pinaster with 6 samples.

Results

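The transcripts described here are a caffeoyl-CoA O-methyltransferase (pp_153042) and a pair of peroxidase forms (pp_136236 and pp_136239), 3 of the 46658 transcripts in the table of maritime pine roots. They were chosen by name, and the choice rested on their control against ammonium values, so those values are given as a description without a test. The libraries came from roots of one-month-old Pinus pinaster seedlings of a single seed source, grown in vermiculite with distilled water and sampled 24 h after irrigation. Control seedlings received 80 mL of water (libraries C1, C2 and C3) and ammonium seedlings received 80 mL of 3 mM NH4Cl (libraries N1, N2 and N3), in 3 independent repeats of the experiment, and the labels give no difference in genotype. Direct RNA sequencing (DRS) was used, in which native poly(A) RNA is read through a nanopore. The number of seedlings behind each library is not given in the sources used here, and the root label was not checked against marker genes.

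Lignin is the phenolic polymer that stiffens and waterproofs secondary cell walls, and in conifers it is built mainly from coniferyl alcohol. The phenylpropanoid pathway makes this monolignol from phenylalanine. Caffeoyl-CoA O-methyltransferase moves a methyl group from S-adenosylmethionine to caffeoyl-CoA and so forms feruloyl-CoA, the precursor of coniferyl alcohol. Class III peroxidases are secreted haem enzymes that use hydrogen peroxide to oxidise many substrates, monolignols among them, and some form or consume reactive oxygen species in the wall for other ends. The names of the 3 transcripts come from sequence matches, and neither enzyme activity nor lignin was measured here.

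The annotation of the 3 transcripts was uneven. The best Arabidopsis match of pp_153042 was AT4G26220, annotated as a member of the S-adenosylmethionine-dependent methyltransferase superfamily. It shared its unigene, a cluster of assembled sequences taken as one gene, with pp_153045, whose Arabidopsis match was AT4G34050. Both peroxidase transcripts matched AT5G17820 and shared 1 unigene with pp_136238 and pp_136240. Forms this alike can hold reads in common, so the forms of a unigene are not separate measurements. In whole roots, less RNA per cell and fewer cells of a type cannot be told apart.

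Values are CPM, read counts scaled to the size of the library, and 1 read was worth from 0.178 CPM (N3) to 0.767 CPM (C1). The libraries held 1270378 to 5416076 recovered reads, with C1 the shallowest and N1 (2947096) next. The first principal component set C1 apart and the second N1. Limma on log2(CPM + 1) called 18 transcripts over the table at an adjusted p under 0.05, 4 higher (0.00857% of those tested) and 14 lower (0.03%) under ammonium.

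The methyltransferase transcript pp_153042 was higher in the ammonium libraries. The water libraries C1, C2 and C3 had 4.60, 7.36 and 6.63 CPM, and the ammonium libraries N1, N2 and N3 had 13.96, 12.2 and 14.3 CPM. The groups did not overlap, with the lowest ammonium library 1.65 times the highest control library, and C1 was the lowest of all. Mean levels were 6.20 ± 1.43 CPM with water and 13.5 ± 1.14 CPM with ammonium (SD, n = 3 libraries each), which is a ratio of 2.17 and, on the log2(CPM + 1) scale used throughout, a fold change of 1.02 (SE 0.20). These values rest on 6, 36 and 30 reads in the control libraries and on 43, 57 and 80 reads in the ammonium libraries. The 95% exact Poisson intervals, which cover counting error only, ran from 1.69 to 10.02 CPM for C1, from 5.16 to 10.2 CPM for C2 and from 4.47 to 9.46 CPM for C3. They ran from 10.1 to 18.8 CPM for N1, from 9.21 to 15.7 CPM for N2 and from 11.3 to 17.8 CPM for N3. The interval of N2 thus overlapped those of all 3 control libraries and that of N1 overlapped the interval of C2, while the interval of N3 lay above all 3.

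The peroxidase form pp_136236 was measured by few reads. With water, C1, C2 and C3 had 0.767, 1.43 and 1.10 CPM, from 1, 7 and 5 reads. With ammonium, N1, N2 and N3 had 3.90, 3.199 and 3.92 CPM, from 12, 15 and 22 reads. Again no control library reached the ammonium range, and the lowest ammonium library was 2.23 times the highest control library. All 3 control values were under 2 CPM, so the form met the filter of 2 CPM in 2 or more samples only through its ammonium libraries. A filter met in this way favours separate groups, so nothing is read from the separation. Mean levels were 1.10 ± 0.332 and 3.67 ± 0.410 CPM (SD, n = 3), with a ratio of 3.34. The log2 fold change was 1.16 (SE 0.30), which the added 1 CPM shrinks at this level. The single read in C1 had a 95% exact Poisson interval of 0.0194 to 4.27 CPM, which held all 3 ammonium values, and it lay under the 2.302 CPM that 3 reads gave in that library.

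The peroxidase form pp_136239 was the most deeply covered of the 3. Levels in C1, C2 and C3 were 58.3, 51.3 and 46.6 CPM, from 76, 251 and 211 reads. Levels in N1, N2 and N3 were 87.3, 72.7 and 74.3 CPM, from 269, 341 and 417 reads. The groups were separate but close, with the lowest ammonium library 1.25 times the highest control library. C1 was the highest control library and N1 the highest ammonium library, so the shallow libraries did not hold the lowest values of this form. Mean levels were 52.1 ± 5.89 and 78.1 ± 8.02 CPM (SD, n = 3), with a ratio of 1.50 and a log2 fold change of 0.58 (SE 0.13). The 95% exact Poisson interval of C1, 45.9 to 73.0 CPM, overlapped those of N2 (65.2 to 80.9) and N3 (67.4 to 81.8) but not that of N1 (77.2 to 98.4).

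All 3 transcripts thus had every ammonium library above every control library. Of all transcripts tested, 7.16% did so, and nothing is read from the comparison, because this contrast chose the 3. Without the libraries C1 and N1, the log2 fold change was 0.83 for pp_153042, 1.01 for pp_136236 and 0.58 for pp_136239.

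**Figure D1:**
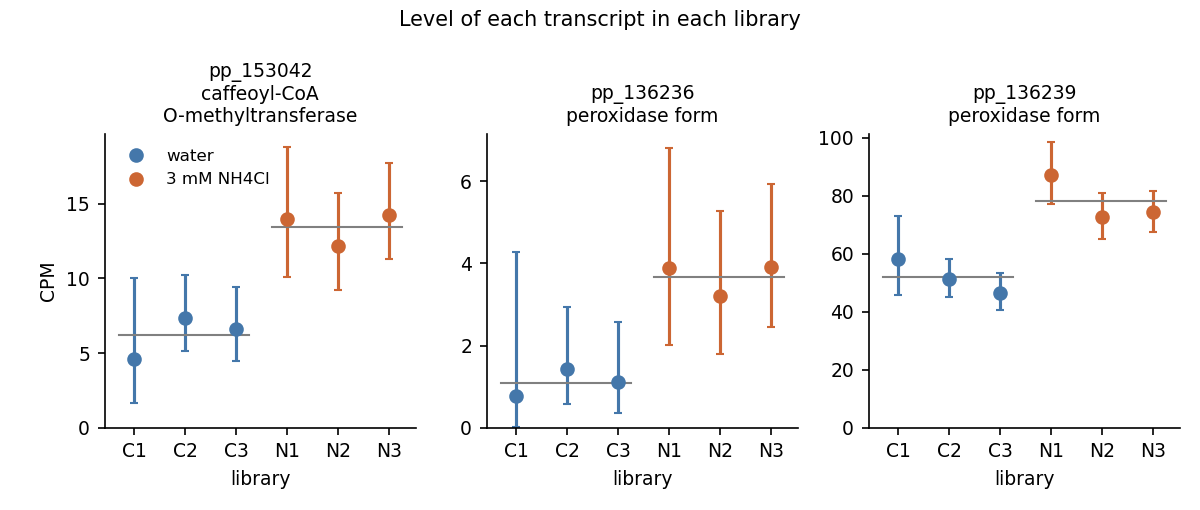
CPM of pp_153042, pp_136236 and pp_136239 in each library, with water libraries in blue and ammonium libraries in orange, 95% exact Poisson intervals as bars and group means as grey lines. Each ammonium point lies above each control point in all 3 panels, and the wide bar of C1 for pp_136236 comes from 1 read.

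Spread between replicates was compared with the spread that read counting alone would give. For pp_153042 the SD was 1.43 CPM in control and 1.14 in ammonium roots, against a counting SD of 1.47 and 1.80 CPM. For pp_136236 the SD was 0.332 and 0.410 CPM against 0.612 and 0.939 CPM. With 3 libraries a group these SDs are themselves imprecise. For pp_136239 the SD of 5.89 and 8.02 CPM exceeded the counting SD of 4.67 and 4.36 CPM.

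The profile of the methyltransferase over the 6 libraries was close to that of the low peroxidase form. Pearson's r of log2(CPM + 1) was 0.99 between pp_153042 and pp_136236, 0.81 between pp_153042 and pp_136239, and 0.87 between both peroxidase forms. The libraries fall into 2 treatment groups that differ in all 3 transcripts, so r mostly carries that difference, and the points share depth and scaling. In the order of the libraries the transcripts differed. N2 was the lowest ammonium library in each of them, whereas C1 was the lowest control library for pp_153042 and pp_136236 and the highest for pp_136239.

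Among 28566 other transcripts with a mean of at least 5 CPM, the profiles most like pp_153042 were those of pp_209385 (r = 0.998), pp_246315 (r = 0.997) and pp_153536 (r = 0.993), none of which has a name in the annotation used. For pp_136236 the closest of 28567 were pp_151992 (r = 0.997) and pp_178082 (r = 0.996), both unnamed, and then pp_153042 itself. For pp_136239 the closest was pp_100138 (r = 0.991), whose Arabidopsis match is named a transcriptional regulator family protein, followed by the unnamed pp_223442 and pp_193363 (both r = 0.990). A high r at 6 libraries was not confined to the transcripts named. An r above 0.95 was reached by 175 of 28566 transcripts for pp_153042, 151 of 28567 for pp_136236 and 94 of 28566 for pp_136239.

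The methyltransferase form was a small share of its unigene. Reads of pp_153042 made up 0.534, 0.762 and 0.714% of the reads of pp_153042 and pp_153045 with water (C1, C2, C3) and 1.36, 1.32 and 1.59% with ammonium (N1, N2, N3). The form pp_153045 itself had 858, 959 and 922 CPM with water and 1014, 910 and 884 CPM with ammonium. Its groups overlapped and it was not called (log2 fold change 0.04, limma adjusted p = 0.948). The total of both forms was 862, 966 and 928 CPM with water and 1028, 923 and 898 CPM with ammonium, and these totals overlapped.

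In the peroxidase unigene the total differed between groups along with pp_136239. The 4 forms summed to 149.6, 135 and 129 CPM with water and to 231, 183 and 183 CPM with ammonium, without overlap. The sum holds pp_136236 and pp_136239, which this contrast chose, so nothing is read from the separation of the total. Neighbouring forms without a name had no unigene given either, so the unigene may hold others. The share of pp_136239 in the reads of the 4 forms was 38.97, 37.97 and 36.01% in control libraries and 37.9, 39.7 and 40.6% in ammonium libraries, and these shares overlapped. The share of pp_136236 was 0.513, 1.06 and 0.853% against 1.69, 1.75 and 2.14%. The 95% exact binomial interval of its share in C1, 0.0130 to 2.82%, held all the others. Sums and shares would count a read more than once where it was assigned to several forms.

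**Figure D2:**
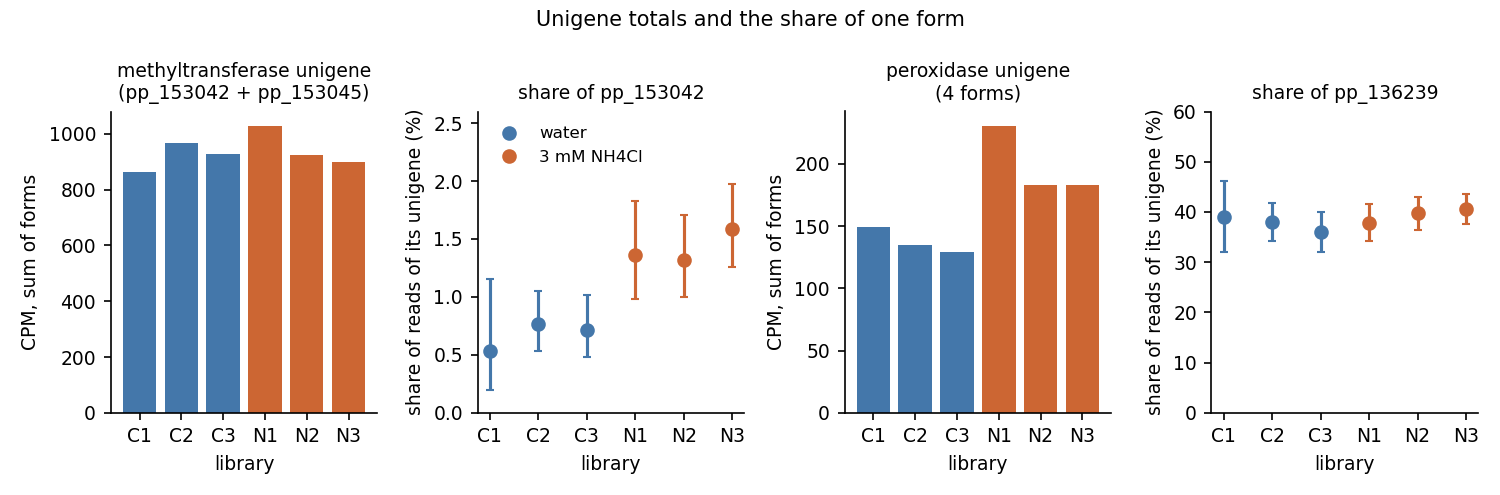
Summed CPM of the forms of each unigene (bars) and the percentage of those reads that belonged to pp_153042 or pp_136239 (points with 95% exact binomial intervals), by library, with water in blue and ammonium in orange. The methyltransferase total overlaps between groups, while the points of the pp_153042 share are higher in the ammonium libraries, with intervals that overlap between groups. The peroxidase total is higher in the ammonium libraries, while the share of pp_136239 stays between 36.01 and 40.6%. Transcripts chosen on this contrast enter the shares and the peroxidase total, so nothing is read from these separations.

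Transcripts with neighbouring IDs, up to 6 on either side, were set beside the 3. Of 8 measured neighbours of the methyltransferase none was called by limma, and 1 was higher at an unadjusted p under 0.05 (4.1% of all transcripts tested were). The exact and quasi-likelihood tests of edgeR and DESeq2 called 0, but DESeq2 gave no adjusted p to the higher one, pp_153043. This transcript, which also matched AT4G34050, was at 3.84, 5.32 and 4.196 CPM with water and 6.82, 8.53 and 8.74 CPM with ammonium. Its groups did not overlap (log2 fold change 0.73, limma adjusted p = 0.348), and it rested on 5 reads in C1. The forms pp_153039, pp_153040, pp_153046 and pp_153047 lay between 917 and 1064 CPM and differed from each other by at most 0.467% in any library, so they hold largely the same measurement. Their log2 fold changes were 0.02 or 0.03, pp_153038 had 0.03, and pp_153041 had 0.25 with overlapping groups. All 8 were above 0, with a median of 0.03, against a median of 0.0043 over all transcripts and 50.7% of all transcripts above 0.

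Around the peroxidases, 13 other IDs were measured and none was called by limma, by the exact or quasi-likelihood test of edgeR or by DESeq2. Of all transcripts tested these called 0.0386, 0.81, 0.244 and 0.208%, so none among 13 is no result about these forms. DESeq2 gave an adjusted p only to pp_136238 and pp_136240 among these. At an unadjusted p under 0.05, limma listed 4 of the 13, all higher under ammonium, and over the table it listed 4.1% in that direction. The same 4 had groups that did not overlap, as 7.16% of all transcripts tested did in that direction. All 4 shared the Arabidopsis match of pp_136236 and pp_136239, but names were read from a list ordered by p-value, so a form with a larger p may share the match without being named. The 4 also may hold reads of pp_136239.

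The form pp_136240 measured 48.3, 42.8 and 41.7 CPM with water against 74.7, 57.2 and 57.2 CPM with ammonium (log2 fold change 0.49, limma adjusted p = 0.291). The form pp_136238 measured 42.2, 39.7 and 40.0 CPM against 64.6, 50.1 and 47.8 CPM (log2 fold change 0.39, limma adjusted p = 0.431). In both, N1 was the highest library, as it was for pp_136239. The low form pp_136235 measured 1.53, 2.05 and 2.21 CPM against 4.22, 4.48 and 4.81 CPM, with a log2 fold change of 0.92 (limma adjusted p = 0.325). For pp_136233 the values were 3.07, 1.84 and 2.65 CPM against 4.55, 4.48 and 5.53 CPM (log2 fold change 0.74, limma adjusted p = 0.446). These 2 low forms belonged to another unigene.

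The remaining 9 IDs of the peroxidase range had log2 fold changes from -0.27 (pp_136231) to 0.44 (pp_136237), and none separated the groups. They were pp_136230, pp_136231, pp_136232, pp_136234, pp_136237, pp_136241, pp_136243, pp_136244 and pp_136245. The trio pp_136241, pp_136243 and pp_136244 differed by at most 2.04% in any library. The median over the 13 neighbours was -0.01.

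**Figure D3:**
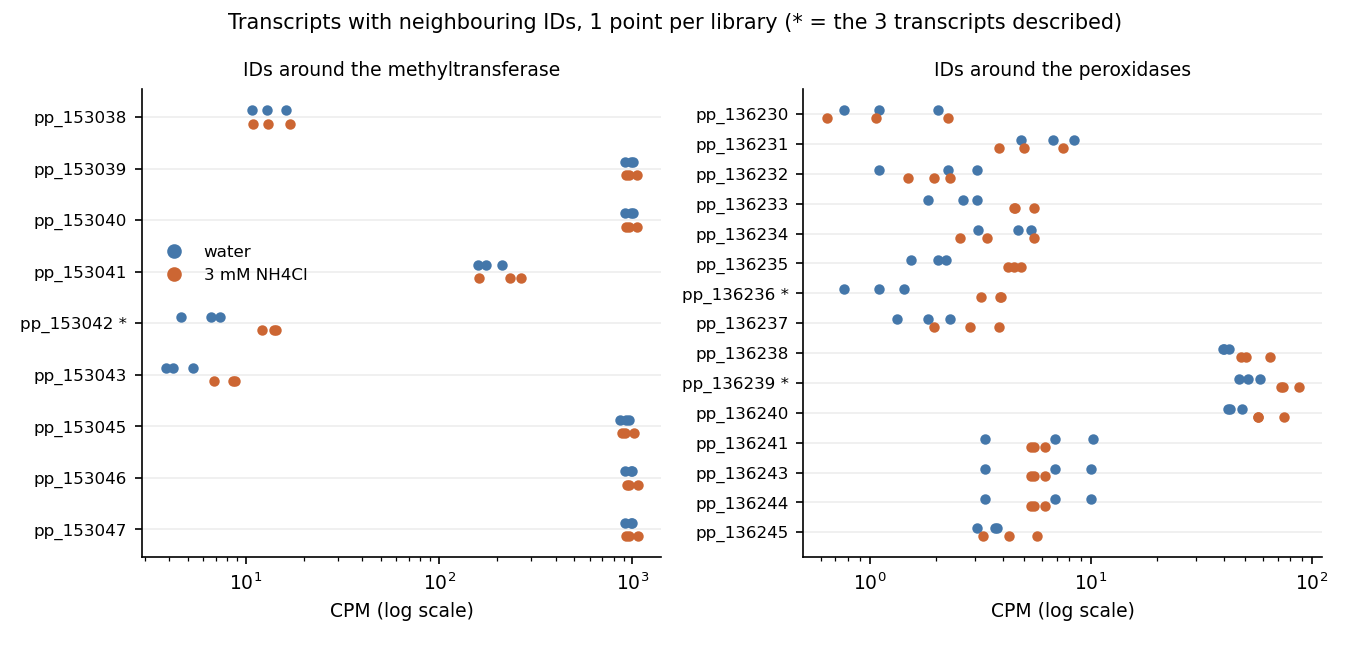
CPM on a log axis of every measured transcript with an ID near the methyltransferase (left) or the peroxidases (right), with 3 water libraries in blue and 3 ammonium libraries in orange on each line and an asterisk on the 3 transcripts described. On the left only pp_153042 and pp_153043 separate the groups, and on the right 6 transcripts do: pp_136233, pp_136235, pp_136236, pp_136238, pp_136239 and pp_136240.

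The other enzymes of the monolignol route were not called by limma. Of 15 measured transcripts other than pp_153042, 12 lay above 0 and 3 below, with a median log2 fold change of 0.11 (50.7% of all transcripts tested lay above 0). The 15 were not all separate measurements. The pairs pp_235188 and pp_235191, pp_136810 and pp_136811, and pp_206243 and pp_206247 each had nearly the same values in every library. Limma called 0, with 2 higher at an unadjusted p under 0.05 (4.1% of all transcripts tested were), edgeR's exact test called 1, and edgeR's quasi-likelihood test and DESeq2 called 0. Over the table limma called 0.0386% of transcripts and DESeq2 0.208%, edgeR's quasi-likelihood test 0.244% and its exact test 0.81% (0.242% in the higher direction). The DESeq2 share counts transcripts without an adjusted p as not called. The log2 fold changes ran from -0.19 to 0.75.

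The transcript that edgeR's exact test called was pp_153265, which the annotation names a 4-coumarate-CoA ligase. An enzyme of that name activates hydroxycinnamic acids by joining them to coenzyme A. The transcript measured 11.5, 15.8 and 15.7 CPM with water against 24.4, 25.4 and 24.1 CPM with ammonium. The groups did not overlap and the ammonium libraries were close to each other (log2 fold change 0.75, SE 0.16, limma adjusted p = 0.148, edgeR exact test adjusted p = 0.010). Its Arabidopsis match, AT4G05160, is annotated only as an AMP-dependent synthetase and ligase, so its place in the monolignol route is not established. The other measured 4-coumarate-CoA ligase transcripts matched AT1G65060 instead. They shared a near-identical profile and had log2 fold changes of 0.11 and 0.12.

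Another caffeoyl-CoA O-methyltransferase, pp_235189, measured 50.6, 47.5 and 45.3 CPM against 50.98, 71.01 and 63.5 CPM. Its groups did not overlap, by a margin of less than 1 CPM (log2 fold change 0.35, limma adjusted p = 0.488). The 4 transcripts named for this enzyme other than pp_153042 summed to 580, 525 and 558 CPM with water and 580.9, 528 and 576 CPM with ammonium, which overlapped. This sum adds pp_235188 and pp_235191 separately, so it may count the same reads more than once. Cinnamyl alcohol dehydrogenase, which reduces the aldehyde to the monolignol, had 3 measured transcripts, with log2 fold changes of 0.30 for pp_86826 (limma adjusted p = 0.592) and 0.11 for both pp_136810 and pp_136811. Cinnamate 4-hydroxylase, the P450 enzyme that adds the first ring hydroxyl, had 3 measured transcripts, with -0.15 for pp_57936 (limma adjusted p = 0.701), -0.12 for pp_57937 and 0.12 for pp_124756. Phenylalanine ammonia-lyase, which opens the route, had 1 measured transcript (pp_195691) with a log2 fold change of 0.08.

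A list of class III peroxidases other than pp_136239 was read from names in tables that are not ordered by p-value. It leaves out the peroxidase forms among the neighbouring IDs (pp_136233, pp_136235, pp_136238 and pp_136240) and the forms pp_212030, pp_212031 and pp_212034 described with the peroxide terms. Of the 17 on it, all measured, 9 lay above 0 and 8 below, with a median log2 fold change of 0.0025 (50.7% of all transcripts tested lay above 0). Limma called 0, with 1 higher at an unadjusted p under 0.05 (4.1% of all transcripts tested were). The exact and quasi-likelihood tests of edgeR and DESeq2 called 0. Of all transcripts tested limma called 0.0386% and these 3 tests 0.81, 0.244 and 0.208%. The higher one was pp_72589, at 2.302, 4.50 and 2.87 CPM against 6.82, 5.97 and 5.35 CPM (log2 fold change 0.77, limma adjusted p = 0.425). It rested on 3 reads in C1, and DESeq2 gave it no adjusted p. Those with the next smallest p were pp_198341 with a log2 fold change of 0.24, pp_134545 with -0.26 and pp_168745 with 0.15. The summed level of the 17 was 1314, 1117 and 1227 CPM with water and 1294, 1217 and 1246 CPM with ammonium, so the groups overlapped. The forms pp_192002, pp_192003 and pp_192004 had nearly the same values in every library, so the sum may count the same reads more than once.

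Annotated peroxidase and hydrogen peroxide terms gave a wider list of 30 measured transcripts. Here 11 lay above 0 and 19 below, with a median of -0.06 (50.7% of all transcripts tested lay above 0). Limma called 0, with 3 lower at an unadjusted p under 0.05 (4.58% of all transcripts tested were). The exact and quasi-likelihood tests of edgeR and DESeq2 called 0. Of all transcripts tested limma called 0.0386% and the other tests 0.81, 0.244 and 0.208%. The 3 lower ones were peroxidase forms of 1 unigene, and DESeq2 gave them no adjusted p. Their ammonium values were all under 2 CPM, so they met the filter of 2 CPM in 2 or more samples only through control libraries. The form pp_212031 measured 3.84, 3.68 and 2.87 CPM against 1.299, 1.49 and 1.25 CPM, without overlap (6.94% of all transcripts tested were lower in this way) and opposite in direction to pp_136239 (log2 fold change -0.92, limma adjusted p = 0.372), and pp_212030 and pp_212034 had the same values as each other (limma adjusted p = 0.422).

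Enzymes that remove hydrogen peroxide, the co-substrate of the peroxidases, numbered 12. Of these 7 lay above 0 and 5 below, with a median of 0.04 (50.7% of all transcripts tested lay above 0). Limma called 0, with 1 lower at an unadjusted p under 0.05 (4.58% of all transcripts tested were), while the exact and quasi-likelihood tests of edgeR and DESeq2 called 0. Of all transcripts tested limma called 0.0386% and the other tests 0.81, 0.244 and 0.208%. The lower one was pp_117930, a glutathione peroxidase, with a log2 fold change of -0.40 (limma adjusted p = 0.495). Of the 4 measured catalase transcripts, pp_209534 had -0.17 and pp_209535 had -0.15, while pp_224243 and pp_224244, which share a profile, had 0.16 and 0.17. The ascorbate peroxidases pp_179540 and pp_179544, which share a profile, had 0.20 and 0.21. The other measured ascorbate peroxidases were pp_179539 with 0.15, pp_213898 with 0.0018 and pp_220765 with -0.09. Groups did not overlap for 3 transcripts of the list in the higher direction and 3 in the lower (7.16% and 6.94% of all transcripts tested).

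S-adenosylmethionine synthetase makes the methyl donor of the methyltransferase, and 6 of its transcripts were measured, 3 above 0 and 3 below, with a median of -0.05. Limma called 0, with 2 lower at an unadjusted p under 0.05 and without overlap (4.58% and 6.94% of all transcripts tested were). The exact and quasi-likelihood tests of edgeR and DESeq2 called 0. Of all transcripts tested limma called 0.0386% and the other tests 0.81, 0.244 and 0.208%. The transcript pp_92107 measured 1198, 1085 and 1173 CPM against 827, 849 and 931 CPM, without overlap (log2 fold change -0.41, limma adjusted p = 0.157). The transcript pp_203935 had a log2 fold change of -0.28 (limma adjusted p = 0.423), also without overlap, while pp_92106 had -0.12 and pp_92108 had 0.05.

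Other branches from the same precursors, those to flavonoids and lignans, had 13 measured transcripts, 4 above 0 and 9 below, with a median of -0.06 (50.7% of all transcripts tested lay above 0). Limma called 0, with 1 higher at an unadjusted p under 0.05 (4.1% of all transcripts tested were). The exact and quasi-likelihood tests of edgeR and DESeq2 called 0. Of all transcripts tested limma called 0.0386% and the other tests 0.81, 0.244 and 0.208%. The higher one was pp_218271, a chalcone synthase with a log2 fold change of 0.58 (limma adjusted p = 0.575) and overlapping groups. DESeq2 gave it no adjusted p. Another chalcone synthase, pp_134828, had -0.24, and 6 of the 7 measured chalcone synthase transcripts lay below 0. The chalcone isomerase forms pp_119262 and pp_119266 had 0.24 each and nearly the same values in every library. Only these forms of the list had groups that did not overlap, both higher under ammonium (7.16% of all transcripts tested were).

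**Figure D4:**
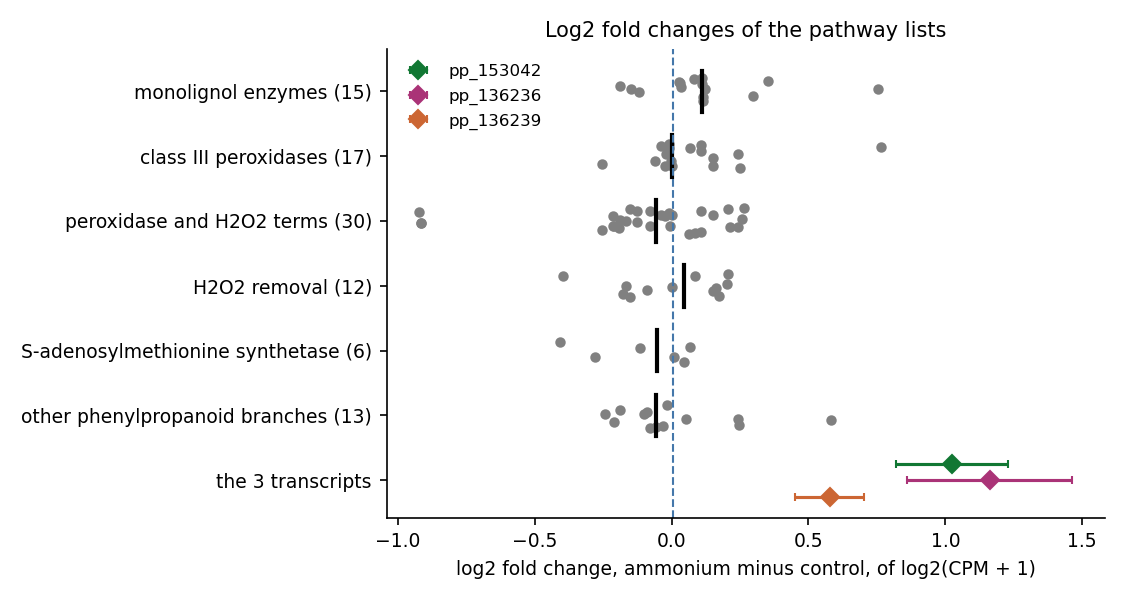
Log2 fold change of log2(CPM + 1), ammonium minus control, of each measured transcript of 6 lists (grey points, number in brackets, black line at the list's median) and of the 3 transcripts described (diamonds with SE). The dashed line is the median of all transcripts (0.0043), and the list medians lie between -0.06 and 0.11. The diamonds stand at 0.58, 1.02 and 1.16. This contrast chose those 3 transcripts, so nothing is read from their distance to the lists.

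The size of the difference depended on how low values were treated, most for pp_136236. Its log2 fold change was 1.56 with a pseudocount of 0.25 CPM and 0.59 with 4 CPM, and it was 1.58 from edgeR's quasi-likelihood fit and 1.63 from DESeq2 on the recovered reads. Over 13 alternatives pp_153042 ranged from 0.78 to 1.14 and pp_136239 from 0.50 to 0.66. With groups that did not overlap, the direction could not turn when a library was left out or the pseudocount changed, so it is no sign of stability.

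**Figure D5:**
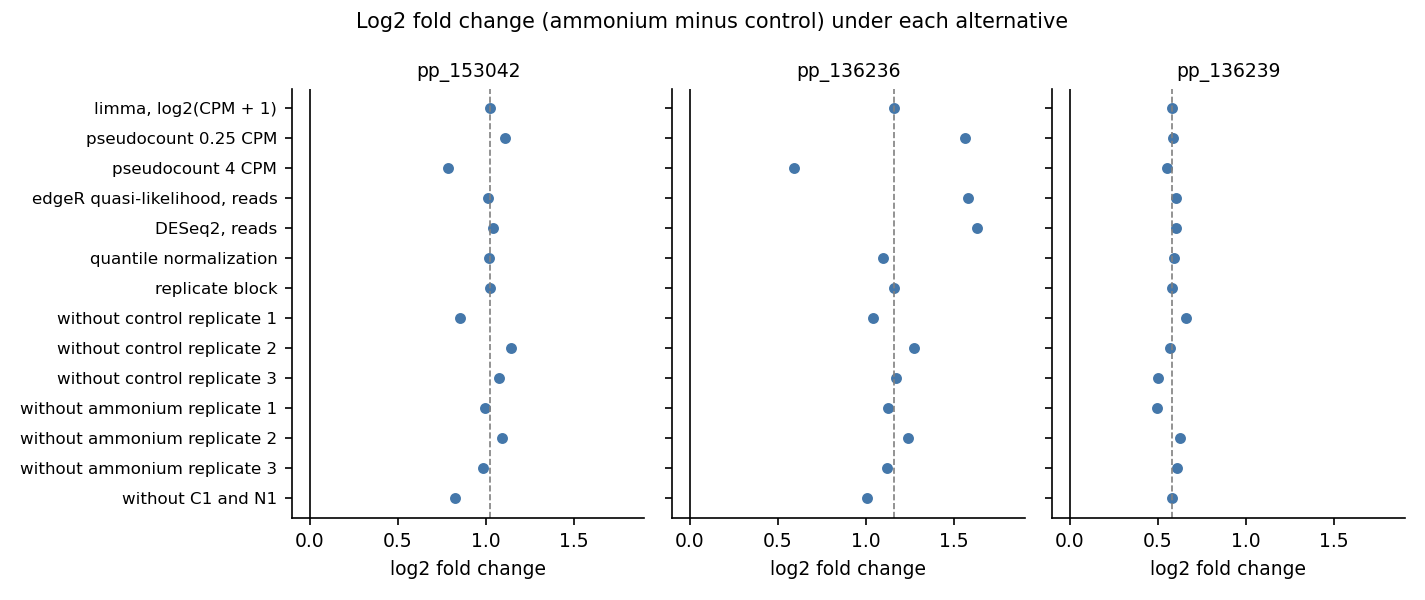
Log2 fold change, ammonium minus control, of each of the 3 transcripts under limma on log2(CPM + 1) (top line, dashed guide) and under 13 alternatives. The points of pp_136236 spread from 0.59 to 1.63, while those of pp_136239 stay between 0.50 and 0.66, and all points lie above 0.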

How the data were processed

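DRS libraries from 3 control and 3 ammonium-treated root samples were used. Per the study's methods, base calling was done with Guppy, reads under the quality threshold were dropped, and minimap2 placed the rest on a root transcriptome of the species. The authors deposited CPM values, made with edgeR, and kept a transcript where 2 or more samples had 2 CPM or more, which held for all 46658. Tool versions and the program that counted reads were not given in the sources used here. All values (100%) were whole multiples of 1 read within 1e-06, so reads were recovered; 3 reads were worth 0.535 to 2.302 CPM. Replicate libraries differed beyond sampling noise (chi-square divided by its degrees of freedom, 1.33 to 2.96).

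The main test was limma (3.58.1, R 4.3.3; lmFit, eBayes with trend) on log2(CPM + 1) over all transcripts, with Benjamini-Hochberg adjustment and a threshold of 0.05. Limma weighted the libraries equally despite their unequal depth. Alternatives were pseudocounts of 0.25 and 4 CPM, edgeR 4.0.16 (exact and quasi-likelihood tests) and DESeq2 1.42.0 on the recovered reads, at least 10 CPM in 3 libraries, quantile normalization, the replicate number as a block, leaving out each library, and leaving out C1 and N1. DESeq2 gave no adjusted p to some low transcripts, pp_153042 and pp_136236 among them. These were counted as not called, so for them a DESeq2 count of 0 is no result. On simulated data for this comparison (46658 transcripts) limma found 75% of the transcripts given a log2 change of 1 and 100% of those given 2, with 3 false calls. Changes were given only to transcripts with a mean of at least 10 CPM, and pp_153042 and pp_136236 had lower means. All simulated transcripts had a single level of replicate variation, and no library was set apart as C1 and N1 were. The rates therefore cannot be carried over to the transcripts described.

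The transcripts and the 8 lists were chosen with earlier results of these data known. Lists were built from names in the study's annotation tables, some of them shortened, and a list holds only transcripts named there. The list of peroxidase and hydrogen peroxide terms shares members with the class III peroxidase and peroxide removal lists. Named were the 3 transcripts, their measured neighbouring IDs (6 on each side), up to 4 of each list with the smallest limma p, and the 3 most alike profiles. Added after values were seen were pp_195691, the other forms of 4-coumarate-CoA ligase, cinnamyl alcohol dehydrogenase, cinnamate 4-hydroxylase, catalase and ascorbate peroxidase, and some forms with nearly the same values. The authors' own columns of comparisons were not used.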

Additional observations from a re-analysis of the deposited data

How the results depend on the processing

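Depth limited pp_136236 most, with 1 read in C1, and the 3 transcripts were chosen on the contrast described. The log2 fold change of pp_136236 went from 1.16 to 1.56 (pseudocount 0.25 CPM), 0.59 (4 CPM), 1.58 (edgeR quasi-likelihood) and 1.63 (DESeq2), and that of pp_153042 from 1.02 to 0.78 (4 CPM), as a pseudocount shrinks low values. With the replicate number as a block the log2 fold changes of the 3 transcripts are the same by construction. Over the table limma called 18 transcripts, against 114 by edgeR's quasi-likelihood test, 378 by its exact test, 97 by DESeq2, 49 with the replicate block, 352 without C1 and N1, and 0 (without C2, with 4726 at an unadjusted p under 0.05) to 71 (without N1) when 1 library was left out. It called 29 without C1, 5 without N2 and 5 without N3. The cause of these differences was not tested. The experiment was repeated independently, but the labels do not say that a number marks a repeat. Deviations of same-numbered libraries correlated at -0.013, 0.089 and -0.026, C2 correlated best with its own number and C1 and C3 with another, so a pairing was not shown and was not used. In each of the 8 lists the count stayed 0 under all alternatives, except 1 monolignol transcript (pp_153265) in edgeR's exact test. Leaving out 1 library gave 0.85 to 1.14 for pp_153042, 1.04 to 1.27 for pp_136236 and 0.50 to 0.66 for pp_136239.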
